A study of Mus musculus with 36 samples.

Results

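Glucocorticoid-responsive genes and metallothioneins were followed through mouse natural killer (NK) cells in 9 genes: Per1, Sgk1, Fkbp5, Tsc22d3, Klf9, Zbtb16, Ddit4, Mt1 and Mt2. The members were chosen by name, as symbols listed in all 4 deposited expression tables, which share 32938 genes, and every member matched 1 row in each table. The names were proposed after earlier analyses of the same libraries, and which values guided the choice is not recorded. The adjusted p-values given for them come from fits across all genes and describe these libraries; they are not independent evidence.

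Glucocorticoid hormones enter the cell and bind the glucocorticoid receptor (Nr3c1), which a chaperone complex built on Hsp90 holds ready in the cytoplasm. The bound receptor moves to the nucleus, where it activates genes through palindromic response elements. In lymphocytes this hormone axis is best known for damping effector function. Metallothioneins are small cysteine-rich proteins that bind zinc and copper; the zinc sensor Mtf1 switches their genes on, and glucocorticoids can do so too.

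The series holds 36 RNA sequencing libraries in 12 groups of 3 biological replicates, in TPM, which corrects reads for transcript length and sets each library to a common total. Mature splenic NK cells (CD27-CD11b+) came from WT (B2m+/+, C57BL/6) mice and from mice without B2m (B2m-/-, KO). Without this chain little MHC class I, the ligand of the inhibitory receptors used for the sort, reaches the cell surface. The sort separated cells with Ly49C, Ly49I and NKG2A together (TP), cells with Ly49I but without Ly49C and NKG2A (SP), and cells negative for these receptors (TN), so that each of 6 combinations had 3 libraries. In a culture experiment, WT splenocytes received vehicle or the calcium ionophore ionomycin for 22 h before the NK cells were purified. WT splenic NK cells were left in medium or exposed to plate-bound antibodies against NKp46 and NKG2D, or NKp46 and DNAM-1, which are activating receptors, for 48 h. The last 3 libraries were CD27-CD11b+ NK cells from WT mice that carried subcutaneous tumours of MC38 cells, a colon carcinoma line, without B2m, at day 10. Their genotype and tumour follow the sample labels; the data columns of these libraries carry the words B2MKO and SP, which the titles do not explain, and B2m in them lay between 3929 and 5196 TPM. The labels give no age or sex of the mice. Each table carries 1 batch date, so every comparison lay within a batch and no level was compared across tables.

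The depth of the libraries is unknown, because TPM keep none. Libraries of the sorted subsets listed 12290 to 14501 genes above 0, and those of the ionomycin experiment 13904 to 15483. The tumour libraries listed 14155 to 16271. B2m lay between 73.93 and 128.47 TPM in the 9 KO libraries and between 2915 and 3420 TPM in the 9 WT libraries. All 8 NK cell markers of a fixed list were above 0 in every group. The 3 KO TP libraries alone among the subsets summed to 226.0 to 467 TPM over 6 B and plasma cell markers, where the other 15 reached at most 51.11 TPM, and to 47.23 to 173 TPM over 6 neutrophil markers, where the others reached at most 3.16 TPM. Over 6 macrophage markers these KO TP libraries summed to 29.35 to 58.18 TPM, where the others reached at most 25.68 TPM. In the antibody table, the group named in the title and the group named in the data column differed for 6 of 9 libraries. Each title group joined a medium library and a library of each antibody pair, all with the same replicate number in their column names. The column names were followed, since they are attached to the values. In bulk RNA of this kind, a lower level can come from fewer cells that hold the transcript or from less transcript per cell, and these cannot be told apart.

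The promoters of the 2 metallothionein genes and of Sgk1 are shown as examples of matches to the metal and glucocorticoid response elements. RefSeq promoter windows (build GRCm38.p6, from 250 bases before to 50 after an annotated start) were found for 8 of the 9 members, 16 windows in all; Zbtb16 was not matched. They were searched on both strands for the metal response element core (TGCACNC or TGCGCNC) and for a glucocorticoid response element written as GNACA, 3 free bases and TGTNC. Capitals mark the matches: in Mt1 the first run is the glucocorticoid element and the next 3 are metal elements, in Mt2 all are metal elements, and in Sgk1 the run is the glucocorticoid element.
Mt1, chr8:94178983-94179118, plus strand: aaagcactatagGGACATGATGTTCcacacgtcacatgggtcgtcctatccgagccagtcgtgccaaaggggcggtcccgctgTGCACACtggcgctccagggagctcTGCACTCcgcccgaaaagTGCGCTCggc
Mt2, chr8:94172383-94172631, plus strand: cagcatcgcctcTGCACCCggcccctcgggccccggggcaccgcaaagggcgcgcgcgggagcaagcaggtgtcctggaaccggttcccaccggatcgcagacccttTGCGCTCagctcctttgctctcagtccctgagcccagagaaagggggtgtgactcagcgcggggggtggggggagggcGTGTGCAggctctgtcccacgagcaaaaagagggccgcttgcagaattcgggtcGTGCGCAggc
Sgk1, chr10:21993690-21993717, plus strand: tttatgcggaaaGAACAGAATGTTCtcg

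The glucocorticoid element was present in 2 of the members' 16 windows, 1 of Mt1 and 1 of 6 annotated for Sgk1, against 0.47% of 32851 windows of the same length. A metal element was present in 5 of the 16 windows and in 25.7% of all windows. Mt2 held 4 metal elements, a number that 0.52% of all windows reached, and Mt1 held 3. The E-box CACGTG, the site of the circadian activators, was matched in 3 of the 16 windows (Per1, Sgk1 and Fkbp5) and in 7.15% of all. The amino acid response element TGATGNAA, the site of Atf4, was matched in none of the 16 and in 3.97% of all. A match describes letters in a window, not a bound site.

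Loss of B2m went with higher Tsc22d3 and Ddit4 in each of the 3 sorted subsets, and with higher Per1 in TP cells. Tsc22d3 encodes GILZ, a leucine zipper protein through which glucocorticoids damp inflammatory signalling, and Ddit4 encodes REDD1, an inhibitor of mTORC1. Per1 is a repressor of the circadian clock that glucocorticoids also induce directly. Limma's moderated test on log2(TPM + 1) called 3 of the 7 members tested in TP cells, where 1.59% of all 12018 genes tested were called at an adjusted p under 0.05. It called 2 of 7 in SP cells against a background of 1.35%, and 2 of 7 in TN cells against 0.716%. Mt1 and Mt2 lay under a mean of 1 TPM in this table and were not tested.

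Tsc22d3 was the highest member in all 18 libraries. It stood at 123.27, 132.9 and 125.19 TPM in WT TP cells and at 375.48, 373.42 and 342.96 TPM in KO TP cells. In SP cells it stood at 120.13, 127.69 and 135.3 TPM in WT and at 311.74, 350.85 and 335.27 TPM in KO. WT TN cells gave 125.58, 78.58 and 103.28 TPM, and KO TN cells gave 351.32, 303.47 and 348.08 TPM. All 9 KO libraries thus lay above all 9 WT libraries, with a gap between 135.3 and 303.47 TPM, and the ratio of the means was 2.89. On the log2(TPM + 1) scale the difference was 1.51 (SE 0.126, adjusted p = 1.64e-06, limma) in TP cells, 1.37 (adjusted p = 4.41e-06) in SP cells and 1.72 (adjusted p = 4.25e-07) in TN cells.

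Ddit4 had the next largest difference. Its WT libraries gave 45.7, 64.55 and 51.14 TPM in TP, 49.25, 31.64 and 52.93 TPM in SP, and 50.36, 48.72 and 48.0 TPM in TN cells. The KO libraries gave 120.0, 183.02 and 109.28 TPM in TP, 123.09, 147.27 and 119.81 TPM in SP, and 128.83, 161.8 and 113.68 TPM in TN cells. The highest WT library (64.55 TPM) lay under the lowest KO library (109.28 TPM). Within KO, the library with replicate number 2 was the highest in each subset. The ratio of the means was 2.73, and the difference on the log2 scale was 1.31 (SE 0.209, adjusted p = 0.00206, limma) in TP cells, 1.55 (adjusted p = 4.24e-04) in SP cells and 1.43 (adjusted p = 0.00159) in TN cells.

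Per1 was higher in all 9 KO libraries by a narrow margin. WT TP cells stood at 24.99, 23.78 and 25.05 TPM and KO TP cells at 49.23, 40.58 and 41.86 TPM. WT SP cells stood at 29.82, 26.35 and 32.16 TPM and KO SP cells at 42.67, 45.39 and 38.35 TPM. WT TN cells stood at 19.14, 27.19 and 24.94 TPM and KO TN cells at 32.21, 40.82 and 34.12 TPM, so that the highest WT library (32.16 TPM, SP) and the lowest KO library (32.21 TPM, TN) nearly met. The log2 difference was 0.81 (SE 0.157, adjusted p = 0.0108, limma) in TP cells, 0.50 (adjusted p = 0.152) in SP cells and 0.58 (adjusted p = 0.131) in TN cells. The call in TP cells was lost without KO TP replicate 1 (adjusted p = 0.0739) and when the fit held only the groups compared (adjusted p = 0.0681).

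**Figure D1:**
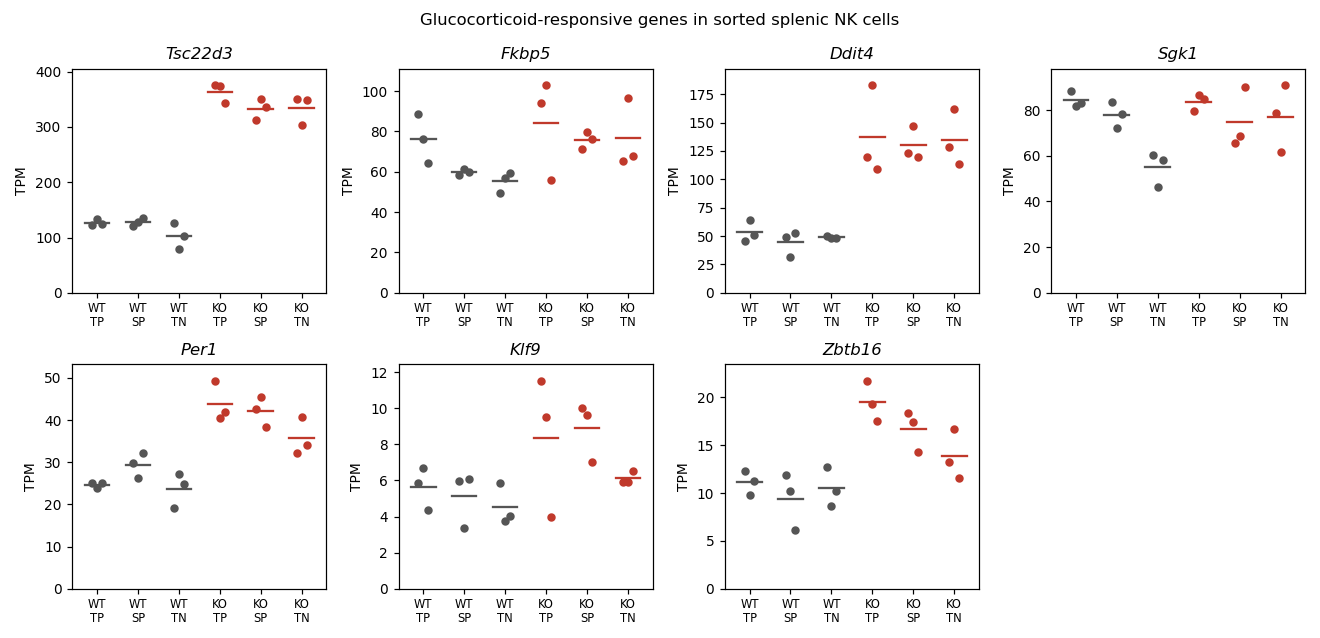
TPM of the 7 glucocorticoid-responsive genes (y axis, from 0) in the 6 groups of sorted splenic NK cells (x axis); points are the 3 libraries of a group and lines their means. The KO points (red) of Tsc22d3, Ddit4 and Per1 all lie above the WT points (grey), with a gap from 135.3 to 303.47 TPM for Tsc22d3, while Sgk1, Fkbp5, Klf9 and Zbtb16 overlap. How many of all genes separate in this way was not counted.

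The other 4 genes were not called in any subset. Zbtb16, which encodes PLZF, a zinc finger factor of innate-like lymphocytes, ranged from 6.16 to 12.76 TPM over the WT libraries (median 10.26) and from 11.57 to 21.71 TPM over the KO libraries (median 17.47). Its log2 difference was 0.76 (adjusted p = 0.16) in TP cells, 0.80 (adjusted p = 0.134) in SP cells and 0.36 (adjusted p = 0.638) in TN cells. Klf9, a Krüppel-like repressor, ran from 3.38 to 6.67 TPM in WT and from 3.99 to 11.51 TPM in KO. Its lowest KO value, KO TP replicate 3, lay among the WT values, and so did the KO TN libraries at 5.91, 5.92 and 6.51 TPM. The log2 difference of Klf9 was 0.40 in TP cells, 0.71 in SP cells and 0.38 in TN cells, each with an SE of 0.34.

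Fkbp5 encodes FKBP51, an Hsp90 co-chaperone that lowers the affinity of the receptor for its hormone. It ran from 49.62 to 88.8 TPM in WT and from 56.01 to 103 TPM in KO, with a log2 difference of 0.11 in TP cells (adjusted p = 0.894, limma), 0.33 in SP cells (0.536) and 0.44 in TN cells (0.431). Sgk1 encodes a serum- and glucocorticoid-regulated kinase of the AGC family. It ran from 46.19 to 88.21 TPM in WT and from 61.72 to 90.92 TPM in KO. Its log2 difference was -0.01 in TP cells (95% interval -0.33 to 0.30), -0.07 in SP cells (-0.39 to 0.25) and 0.47 in TN cells (0.16 to 0.79, adjusted p = 0.226, limma).

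Mt1 and Mt2 were listed at 0 in all 9 WT libraries. Among the KO libraries, Mt1 was listed at 0.7 TPM in SP replicate 3 and Mt2 at 2.19 TPM in TN replicate 1, and both genes were listed at 0 in the rest. Of 79 ribosomal protein genes, those at 0 in any library were the paralogs Rpl3l, Rpl10l, Rpl32l, Rpl39l, Rpl6l and Rps4l. A value of 0 is reported only as listed.

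A comparison of KO with WT averaged over the 3 subsets was added after the data were seen. It called 4 of the 7 members, against 6.18% of all genes. Tsc22d3 differed by 1.53 (SE 0.073, adjusted p = 3.16e-10, limma), Ddit4 by 1.43 (SE 0.12, adjusted p = 5.78e-07), Per1 by 0.63 (SE 0.091, adjusted p = 2.88e-04) and Zbtb16 by 0.64 (SE 0.139, adjusted p = 0.00954). Klf9 differed by 0.50 (adjusted p = 0.16), Fkbp5 by 0.29 (adjusted p = 0.147) and Sgk1 by 0.13 (adjusted p = 0.446). Without KO TP replicate 3, in which Fkbp5 and Klf9 were the lowest of the KO libraries, Fkbp5 differed by 0.38 (adjusted p = 0.0201) and Klf9 by 0.63 (adjusted p = 0.0436), and 6 members were called. The 3 subsets may have been sorted from the same mice. The part of the B cell, neutrophil and macrophage transcripts of KO TP cells in these differences was not tested. KO libraries of SP and TN cells held at most 17.1 TPM of B and plasma cell, 3.16 TPM of neutrophil and 12.41 TPM of macrophage markers. In SP and TN cells Tsc22d3 differed by 1.37 and 1.72 and Ddit4 by 1.55 and 1.43.

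**Figure D2:**
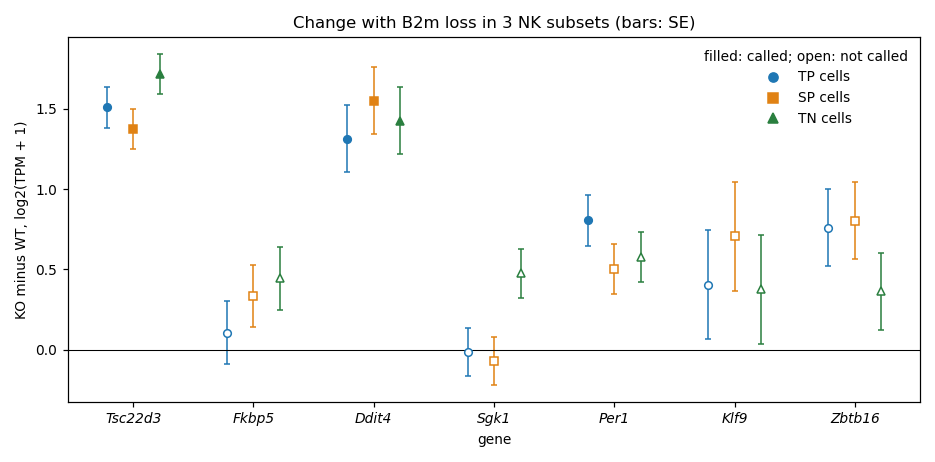
Difference between KO and WT in log2(TPM + 1) (y axis) for each of the 7 tested members (x axis) in TP, SP and TN cells; bars are standard errors of the limma fit, and filled symbols passed an adjusted p of 0.05. Tsc22d3 lies between 1.37 and 1.72 and Ddit4 between 1.31 and 1.55 in the 3 subsets, and Sgk1 lies near 0 in TP and SP cells.

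The differences between KO and WT were not shown to depend on the subset. None of the 7 members was called for a KO effect in TN cells that differed from that in TP cells (0.025% of all genes called; 1 member, Sgk1, at an unadjusted p under 0.05), or in SP from TP cells (0.0166% of all genes; 0 members unadjusted). For Tsc22d3 the effect in TN minus that in TP cells was 0.21 (95% interval -0.17 to 0.58) and for Ddit4 0.11 (-0.51 to 0.73). For Sgk1 it was 0.49 (0.04 to 0.94, adjusted p = 0.739, limma).

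Within a genotype, limma called no member between subsets. The counts were 0 of 7 for TN against TP cells in WT (1.31% of all genes called, 3 members at an unadjusted p under 0.05), 0 of 7 for SP against TP in WT (0.191%, 0 unadjusted), 0 of 7 for TN against TP in KO (0.524%, 0 unadjusted) and 0 of 7 for SP against TP in KO (0.2%, 0 unadjusted). Sgk1 came nearest. It stood at 88.21, 81.8 and 83.32 TPM in WT TP cells, at 83.38, 72.08 and 78.31 TPM in WT SP cells and at 60.45, 46.19 and 58.21 TPM in WT TN cells. The TN libraries lay under all others of WT, and the log2 difference from TP cells was -0.62 (SE 0.15, adjusted p = 0.0548, limma). How many of all genes separate in this way was not counted. In KO cells the TN libraries gave 78.93, 61.72 and 90.92 TPM and overlapped the TP libraries at 79.52, 86.47 and 84.91 TPM, with a difference of -0.13 (95% interval -0.45 to 0.19).

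The order of the groups shows the same split by genotype. The share of all genes in which every KO library lay above every WT library was not counted. Calr, Rab4a, Cxcr4, Txnip and Hsp90ab1, described below, had that split too. For Tsc22d3 and Ddit4 the means of the 3 KO groups came first and those of the 3 WT groups last. The ranges of neighbours in that order overlapped except at the step from KO to WT. Per1 had the same order, with a further step from WT SP cells, at 29.44 ± 2.92 TPM (SD, n = 3), to WT TP cells, at 24.61 ± 0.72 TPM; WT TN cells overlapped both. Across the 18 libraries Tsc22d3 and Ddit4 had a Pearson correlation of 0.927 in log2 values, and after the group means were removed the correlation was 0.092. For Per1 and Tsc22d3 these values were 0.839 and -0.598. The libraries share 1 batch, and the correlation of the levels follows the step between genotypes.

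The genes whose profile over the 18 libraries was most like the mean of the 7 standardised members were Calr (r = 0.941), Slc35g1 (r = 0.929), Rab4a (r = 0.921), Nr3c1 (r = 0.917) and Cpt1a (r = 0.916). Several members differ between genotypes, so genes with a step between KO and WT score high here, and r does not show shared regulation. Calr encodes the chaperone calreticulin, Nr3c1 the glucocorticoid receptor and Cpt1a the carnitine palmitoyltransferase of mitochondrial fat oxidation. Calr ranged from 368 to 471 TPM in WT and from 518 to 651 TPM in KO. Rab4a, a small GTPase of endosomal recycling, ranged from 0 to 2.89 TPM in WT and from 5.09 to 10.14 TPM in KO.

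The machinery of the receptor was higher in KO cells in its chaperones. In the average over subsets, 6 of the 11 tested genes of the receptor, its chaperones, coregulators and hormone-converting enzymes rose and 0 fell. Of all genes, 6.18% were called in that average. The median difference of the 11 was 0.28 on the log2 scale, against 0.04 over all genes. The receptor gene Nr3c1 ranged from 73.35 to 94.15 TPM in WT and from 87.17 to 120 TPM in KO. It differed by 0.28 (SE 0.059, adjusted p = 0.00735, limma) in that average, and by 0.31 (adjusted p = 0.172), 0.18 (adjusted p = 0.517) and 0.35 (adjusted p = 0.167) in TP, SP and TN cells alone.

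The 5 others that rose were Stip1 (1.03, the adaptor that joins Hsp70 to Hsp90), Fkbp4 (0.90, FKBP52, the co-chaperone that favours hormone binding), Hsp90aa1 (0.89), Ptges3 (0.77, the p23 co-chaperone) and Hsp90ab1 (0.69). Hsp90ab1 lay between 395 and 475 TPM in WT and between 557 and 887 TPM in KO. Hsd11b1, the enzyme that regenerates active hormone from its inert form, stood at 295 to 367 TPM in WT and 276 to 318 TPM in KO and was not called. By subset, 3 of 11 rose in TP cells (Stip1, Fkbp4 and Ptges3), 2 in SP cells (Hsp90ab1 and Fkbp4) and 1 in TN cells (Fkbp4). Of all genes, 1.59%, 1.35% and 0.716% were called in TP, SP and TN cells. These calls in single subsets were unsteady: each was lost when any of 3 to 5 libraries was left out, at adjusted p-values from 0.056 to 0.231.

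Of a list of 11 handling and stress genes, 10 were tested in the average over subsets, where 6.18% of all genes were called. In the average over subsets 3 rose: the heat-shock genes Hspa1b (2.01) and Dnajb1 (1.09), and the immediate early gene Jun (0.61), whose call was lost in 19 of 24 alternative settings. Egr1, another immediate early gene, fell by 1.23. The heat-shock gene Hspa1a differed by 0.81 without a call (adjusted p = 0.341, limma). The part of cell handling in the chaperone differences was not tested.

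Among 16 other genes often induced by glucocorticoids, 4 rose and 1 fell in the average over subsets, where 6.18% of all genes were called. Cxcr4, the chemokine receptor that holds NK cells in the bone marrow, lay between 29.18 and 69.36 TPM in WT and between 412 and 528 TPM in KO, a log2 difference of 3.23 (SE 0.102, adjusted p = 8.61e-13, limma). Txnip, an inhibitor of glucose uptake, lay between 558 and 694 TPM in WT and between 1045 and 1500 TPM in KO and rose by 1.12. Irs2, an insulin receptor substrate, rose by 0.66, and Pik3ip1, an inhibitor of PI3K, rose by 0.63, a call lost in 14 of 24 alternative settings. Anxa1, a classical glucocorticoid-induced anti-inflammatory protein, fell by 0.75, from 159 to 310 TPM in WT to 95.26 to 165 TPM in KO. Dusp1 and Nfkbia, equally common targets, were not called.

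The circadian list gave no call beside that of Per1: 0 of 12 tested genes were called by limma in the average over subsets, with 0 at an unadjusted p under 0.05. Of all genes, 6.18% were called in that average. The clock activator Arntl differed by 0.09 (SE 0.108) and Per2 by 0.29 (SE 0.239). Of 17 tested zinc-handling genes, Slc30a4 (0.73, adjusted p = 0.0452, limma), a zinc exporter, and the metal sensor Mtf1 (0.38, adjusted p = 0.0497) were called in that average. These calls lay at the threshold, and fewer zinc genes passed in 23 of 24 alternative settings. Of 5 tested Atf4 target genes, Atf4 itself was called (-0.16, adjusted p = 0.0432, limma) and was lost in 15 of 24 settings.

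**Figure D3:**
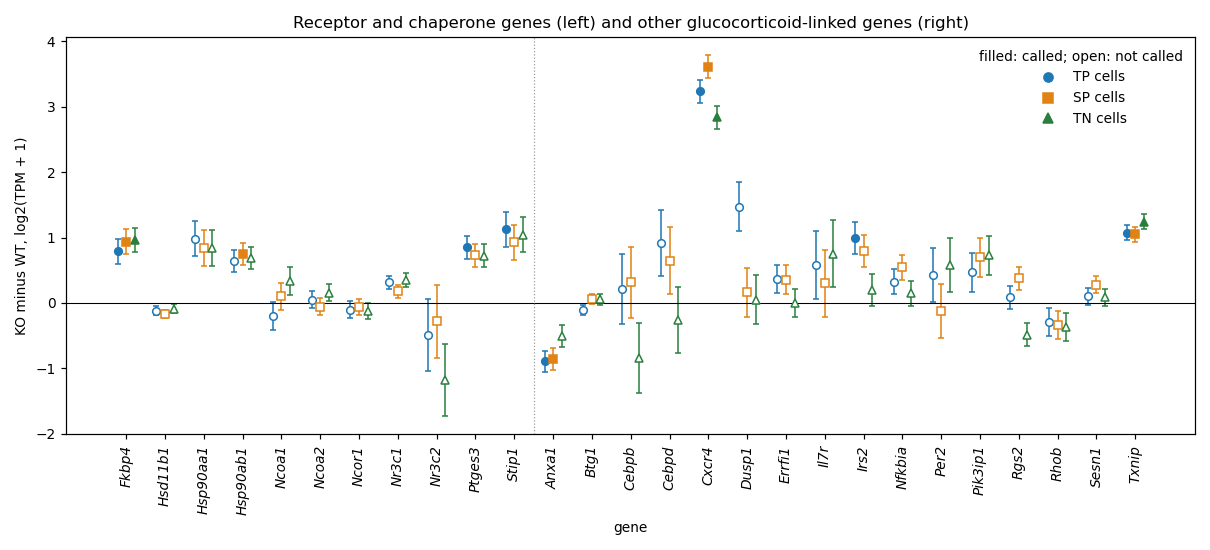
Difference between KO and WT in log2(TPM + 1) (y axis) for the tested genes of the receptor list (left of the dotted line) and of the other glucocorticoid-linked list (right), in TP, SP and TN cells; bars are standard errors, and filled symbols were called. Cxcr4 lies between 2.84 and 3.61, Txnip between 1.05 and 1.24, and Anxa1 lies under 0 in all 3 subsets.

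Ionomycin, which raises cytosolic calcium and bypasses the receptors of the cell, went with lower Ddit4. Limma called 1 of the 9 members, against 2.91% of 14372 genes tested. The summed NK cell markers stood at 12885, 11976 and 6488 TPM with vehicle, against 6297, 5442 and 4896 TPM under ionomycin, and 3 of the 8 (Cd244a, Gzma and Ncr1) fell. The 5 listed T cell markers summed to 2.24 to 7.87 TPM with vehicle and to 12.78 to 25.27 TPM under ionomycin. Cd4 and Cd8a were at 0 in both groups, and 0 of the 2 T cell markers tested had an unadjusted p under 0.05 (limma). The part of these shifts in the members' values was not tested. Ddit4 stood at 89.46, 81.11 and 48.14 TPM with vehicle, against 16.51, 22.27 and 22.15 TPM under ionomycin, so the groups did not overlap. How many of all genes separate in this way was not counted. The log2 difference was -1.76 (SE 0.33, adjusted p = 0.0281, limma), and the vehicle mean was 3.59 times the ionomycin mean. The call did not hold without ionomycin replicate 1 (adjusted p = 0.138), ionomycin replicate 2 (0.126), ionomycin replicate 3 (0.132) or vehicle replicate 2 (0.126), nor without the filter on low values (0.0645) or without the variance trend (0.0814).

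Klf9 went the other way. It stood at 1.79, 2.75 and 6.1 TPM with vehicle, against 17.18, 21.34 and 19.65 TPM under ionomycin. The groups did not overlap, as in 3 of the 9 members (Ddit4, Klf9 and Zbtb16), without a count over all genes. The ratio of the means was 5.47, but the log2 difference of 2.27 (SE 0.512) missed the threshold (adjusted p = 0.0553, limma). It passed after quantile normalization (adjusted p = 0.0386), after median-of-ratios scaling (0.0418) and without vehicle replicate 3 (0.0203).

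The vehicle libraries differed widely among themselves. Per1 stood at 13.17, 53.69 and 84.89 TPM with vehicle, against 76.78, 136.98 and 89.95 TPM under ionomycin. Tsc22d3 stood at 49.84, 128.72 and 140.58 TPM with vehicle, against 121.92, 111.55 and 85.71 TPM under ionomycin, and the ratio of the means was 1.00. Zbtb16 was listed at 0, 8.63 and 11.69 TPM with vehicle, against 13.81, 22.42 and 16.05 TPM under ionomycin. Its groups did not overlap, and the log2 difference was 1.87 (adjusted p = 0.394, limma). In Per1, Tsc22d3 and Zbtb16 vehicle replicate 1 was the lowest library, and in Fkbp5 and Ddit4 it was the highest.

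Sgk1 gave 41.92, 69.62 and 76.35 TPM with vehicle and 33.25, 53.41 and 26.03 TPM with ionomycin, a difference of -0.74 (95% interval -1.56 to 0.08). Fkbp5 gave 60.36, 41.01 and 38.02 TPM with vehicle and 21.15, 18.06 and 38.6 TPM with ionomycin, a difference of -0.86 (-1.71 to -0.02, adjusted p = 0.32, limma). Both groups overlapped.

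Both metallothioneins were present in the vehicle libraries. Mt1 gave 5.62, 10.93 and 40.13 TPM with vehicle and 2.11, 10.85 and 6.82 TPM with ionomycin (adjusted p = 0.558, limma). Mt2 was listed at 0, 9.26 and 20.46 TPM with vehicle, against 1.15, 0 and 0 TPM under ionomycin (adjusted p = 0.413, limma; 0.0471 without vehicle replicate 1). Vehicle replicate 3, the highest in both, also had the highest sum of 6 neutrophil markers, 306 TPM. Ionomycin replicate 3 followed at 119 TPM, and the other 4 libraries held 2.19 TPM at most. The part of these transcripts in the result was not tested.

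**Figure D4:**
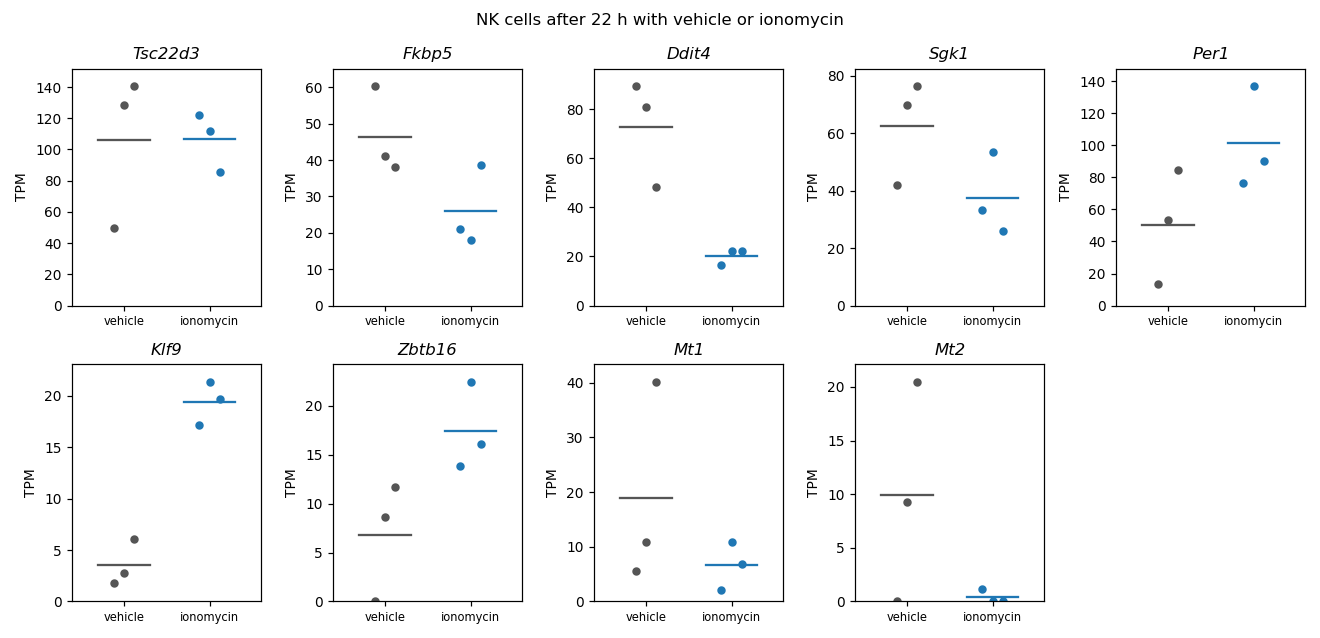
TPM of the 9 members (y axis, from 0) in the 3 vehicle (grey) and 3 ionomycin (blue) libraries; lines are means. Ddit4 points lie between 16.51 and 22.27 TPM with ionomycin, under all vehicle points. Klf9 points lie between 17.18 and 21.34 TPM and Zbtb16 points between 13.81 and 22.42 TPM with ionomycin, above all vehicle points. How many of all genes separate in this way was not counted.

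Of the other genes of the axis, Hsd11b1 fell from 93.62, 220.52 and 182.01 TPM with vehicle to 28.99, 40.9 and 47.26 TPM with ionomycin, a difference of -1.99 (SE 0.358, adjusted p = 0.024, limma). It was the only 1 of 11 receptor genes called, where 2.91% of all genes were called. The call was lost without ionomycin replicate 1 (adjusted p = 0.133, limma), 2 (0.124) or 3 (0.103) or vehicle replicate 2 (0.0999). It was also lost without the filter (0.0758) and without the variance trend (0.0977). Nr3c1 stood at 37.92, 76.11 and 93.77 TPM with vehicle, against 79.08, 102.31 and 84.07 TPM under ionomycin (adjusted p = 0.638, limma). Of the 16 other glucocorticoid-linked genes, 2 fell: Anxa1, from 105.84, 92.92 and 94.65 TPM to 26.52, 21.23 and 26.6 TPM, and Btg1, an antiproliferative gene, which fell by 1.77 on the log2 scale. The Anxa1 call was lost without ionomycin replicate 2 (0.0613) or 3 (0.0585), and that of Btg1 without any library but vehicle replicate 3 (0.0506 to 0.196).

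On plate-bound antibodies, the metallothioneins were listed above 0 where the medium libraries listed 0. Limma called 1 of 9 members, Mt1, for the NKp46 and NKG2D antibodies against medium (0.431% of 13689 genes tested were called) and 1 of 9, again Mt1, for the NKp46 and DNAM-1 antibodies (0.782%). Mt1 and Mt2 passed the filter of a mean of 1 TPM only through the antibody groups, so the filter favoured a difference from medium, and their adjusted p-values are given beside the levels without being read as support. Mt1 was listed at 0 in the 3 medium libraries. It stood at 13.85, 2.6 and 8.35 TPM with NKp46 and NKG2D antibodies (adjusted p = 0.0366, limma) and at 10.09, 14.17 and 11.4 TPM with NKp46 and DNAM-1 antibodies (adjusted p = 0.0122). Mt2 was also listed at 0 in medium, and stood at 0.36, 1.71 and 4.63 TPM with the former (adjusted p = 0.253) and at 5.42, 4.96 and 4.87 TPM with the latter (adjusted p = 0.0664).

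The antibody libraries listed 16107 to 18096 genes above 0 and the medium libraries 13555 to 14674, and the part of this gap in the metallothionein values was not tested. For the NKp46 and NKG2D antibodies the Mt1 call was lost without antibody replicate 1 (adjusted p = 0.137), antibody replicate 3 (0.178), medium replicate 1 (0.0652) or medium replicate 2 (0.059), and also without the filter (0.136), after quantile normalization (0.0505) and with only the groups compared (0.216). For NKp46 and DNAM-1 it was lost without antibody replicate 2 (0.079) or antibody replicate 3 (0.0686) and without the filter (0.0612). Grouped by the sample titles, Mt1 was lower by 0.53 on the log2 scale with the former (adjusted p = 0.986, limma) and by 0.17 with the latter (adjusted p = 0.975). If the column names hold, each title group mixes medium and antibody libraries, and this setting compares replicate numbers, not treatments. It cannot decide which labels are right, and the direction of Mt1 rests on the column names. None of 17 zinc-handling genes was called by limma for either antibody pair, with 2 and 1 at an unadjusted p under 0.05.

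Sgk1, Per1 and Klf9 were lower in all 6 antibody libraries than in all 3 medium libraries, without a call in the fit that does not use the replicate numbers. The share of all genes that separate in this way was not counted. Of 13689 genes tested, 2069 (NKp46 and NKG2D) and 2458 (NKp46 and DNAM-1) had an unadjusted p under 0.05 against medium (limma). Sgk1 stood at 31.99, 32.89 and 25.45 TPM in medium, at 16.12, 12.21 and 7.54 TPM with NKp46 and NKG2D antibodies, and at 12.3, 12.13 and 8.44 TPM with NKp46 and DNAM-1 antibodies. Its log2 differences were -1.31 (adjusted p = 0.095, limma) and -1.39 (adjusted p = 0.0664). Per1 stood at 47.9, 40.31 and 29.34 TPM in medium, at 20.74, 22.63 and 17.98 TPM with the former and at 24.06, 21.69 and 16.79 TPM with the latter, differences of -0.88 (adjusted p = 0.139) and -0.87 (adjusted p = 0.115). Klf9 stood at 17.93, 12.17 and 11.69 TPM in medium, at 5.27, 7.2 and 5.39 TPM with the former and at 6.94, 5.87 and 5.34 TPM with the latter, differences of -1.09 (adjusted p = 0.141) and -1.06 (adjusted p = 0.118). Without medium replicate 3, Per1 passed for both pairs (adjusted p = 0.0435 and 0.0358, limma) and Sgk1 for NKp46 and DNAM-1 (0.0385). With the replicate number as a block, Sgk1 passed for both pairs (adjusted p = 0.0307 and 0.0177, limma), Per1 for NKp46 and DNAM-1 (0.0376) and Klf9 for neither. The 2 antibody comparisons share their medium libraries.

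Fkbp5 hardly varied in this table and was the highest member in all 9 libraries. It stood at 70.63, 65.94 and 68.62 TPM in medium, at 62.46, 65.25 and 66.02 TPM with NKp46 and NKG2D antibodies, and at 64.29, 67.1 and 68.08 TPM with NKp46 and DNAM-1 antibodies, differences of -0.08 (95% interval -0.33 to 0.17) and -0.04 (-0.29 to 0.21). Tsc22d3 ran from 33.92 to 51.58 TPM in medium and from 34.45 to 42.69 TPM over both antibody groups, differences of -0.07 (-0.48 to 0.34) and -0.20 (-0.60 to 0.21). Ddit4 ran from 19.19 to 28.43 TPM in medium, from 17.67 to 20.61 TPM with the former and from 15.3 to 18.31 TPM with the latter. Zbtb16 ran from 3.06 to 10.11 TPM in medium and from 4.01 to 5.91 TPM over both antibody groups.

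The antibody pairs themselves were compared directly. Limma called 0 of 9 members between them (0.0146% of all genes called, 0 members at an unadjusted p under 0.05). The NKp46 and DNAM-1 libraries minus the NKp46 and NKG2D libraries gave 0.69 for Mt1 (95% interval -0.42 to 1.80), 1.15 for Mt2 (-0.07 to 2.36), -0.08 for Sgk1 (-0.72 to 0.57) and 0.02 for Per1 (-0.49 to 0.53). For Mt2, as the only 1 of 9 members, the ranges did not overlap. The highest value with NKp46 and NKG2D was 4.63 TPM and the lowest with NKp46 and DNAM-1 was 4.87 TPM. How many of all genes separate in this way was not counted, so this separation is given only as a description.

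**Figure D5:**
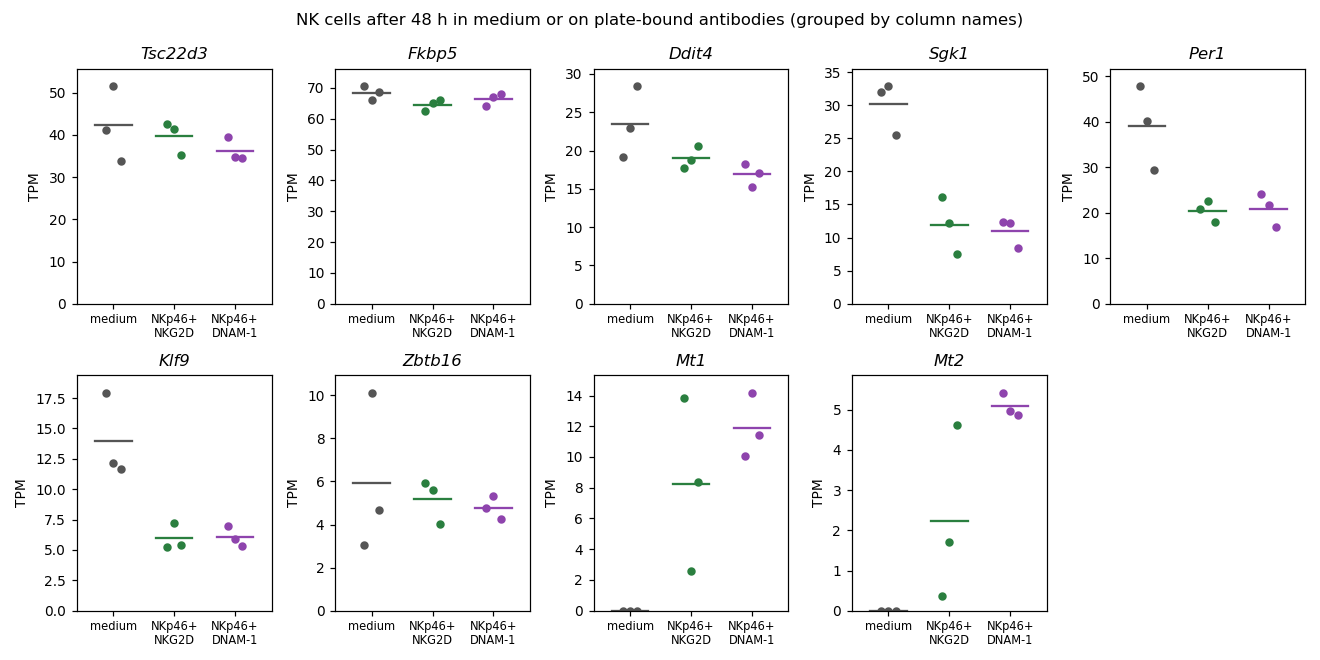
TPM of the 9 members (y axis, from 0) in 3 medium, 3 NKp46 and NKG2D and 3 NKp46 and DNAM-1 libraries, grouped by the column names; lines are means. Mt1 and Mt2 points are at 0 in medium and above 0 in the 6 antibody libraries, the Sgk1, Per1 and Klf9 points of medium lie above all others, and Fkbp5 stays between 62.46 and 70.63 TPM.

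Immediate early genes, which receptor signalling switches on within minutes, were higher in medium by the column names, and none of them was called under the title groups. By the column names every title group mixes medium and antibody libraries, so that setting does not test the difference. Of 9 tested genes of the handling and stress list, 5 fell with each antibody pair: Fos, Egr1, Zfp36, Junb and Ier2. Of all genes, 0.431% (NKp46 and NKG2D) and 0.782% (NKp46 and DNAM-1) were called against medium. Egr1 stood at 2312, 1692 and 1504 TPM in medium, at 329, 309 and 234 TPM with NKp46 and NKG2D antibodies, and at 324, 320 and 238 TPM with NKp46 and DNAM-1 antibodies. Its differences were -2.64 (adjusted p = 4.72e-04, limma) and -2.63 (adjusted p = 5.19e-04). Il7r, the interleukin 7 receptor and 1 of the 16 other glucocorticoid-linked genes, fell from 38.13, 27.99 and 24.47 TPM to 6.38, 6.06 and 4.71 TPM and to 8.79, 9.15 and 5.08 TPM. The Il7r call was lost without NKp46 and NKG2D replicate 3 (adjusted p = 0.0609) for the first pair, and for the second without any of its 3 antibody libraries (0.0643 to 0.104) or medium replicate 1 (0.0532). With NKp46 and DNAM-1 antibodies, 2 of 8 tested Atf4 genes fell, where Trib3, a pseudokinase, fell by 2.50 and Atf4 itself fell by 0.62. Both calls were lost without any of the 3 antibody libraries (adjusted p from 0.064 to 0.155) or medium replicate 1 (0.0592 and 0.0582), and without the filter (0.097 and 0.0705). None of 11 receptor genes was called by limma for either pair, with 3 and 5 at an unadjusted p under 0.05.

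In the tumour libraries the members can only be described, since the table holds no other group. Per1 stood at 253.39, 237.53 and 207.68 TPM, Tsc22d3 at 264.36, 441.88 and 270.08 TPM and Sgk1 at 118.41, 153.99 and 287.22 TPM. These 3 genes held the upper places in every library, with Tsc22d3 the highest in 2 and Sgk1 in 1. Ddit4 stood at 64.28, 82.48 and 74.65 TPM, Fkbp5 at 52.02, 45.73 and 53.06 TPM, Klf9 at 20.72, 20.68 and 18.3 TPM, and Zbtb16 at 4.8, 5.68 and 4.79 TPM.

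Both metallothioneins were above 0 in all 3 tumour libraries. Mt1 stood at 4.5, 54.34 and 64.45 TPM and Mt2 at 14.98, 45.77 and 18.96 TPM, so Mt1 spread more widely than any of the other 8 relative to its lowest value. The same libraries summed to 39.84 to 84.14 TPM over 6 macrophage markers and to 1.93 to 4.89 TPM over 5 epithelial markers, with Krt18 and Krt19 at 0. All 6 neutrophil markers were at 0. Nr3c1 stood at 65.39, 108.86 and 70.55 TPM and Mtf1 at 15.34, 21.96 and 39.82 TPM.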

How the data were processed

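Libraries were made from total RNA with a poly(A) mRNA kit, per the labels' protocols. The authors deposited TPM values for each gene and library; STAR, RSEM and build GRCm39 are named in the submitters' processing notes, without versions. The sums are 1000000 TPM per library, except in the subset table (934292 to 948786 TPM). Groups followed the sample titles; the antibody libraries followed the column names.

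Genes that averaged 1 TPM or more over a table were tested on log2(TPM + 1), which understates changes of low genes. Limma 3.58.1 in R 4.3.3 fitted 1 mean per group over all groups of a table, with a variance trend, two-sided tests and Benjamini-Hochberg adjustment over all genes of a comparison. Calls are adjusted p under 0.05; with 3 against 3 libraries an exact permutation test of 1 gene cannot go below p = 0.1. The labels call the replicates biological. In the subset and antibody tables the column names join genotype and number into a prefix that recurs across groups. The labels do not say whether that prefix marks a shared mouse.

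The members and gene lists were chosen with earlier results of these data known, and the text names all 9 members and the called or defining genes of the lists. Likeness was Pearson's r with the mean z-score of the 7 tested members over 18 libraries. Alternatives were a pseudocount of 0.1, no filter, 2 scalings, no trend, only the groups compared, a replicate block, the title groups and each library left out.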

Additional observations from a re-analysis of the deposited data

How the results depend on the processing

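Of 1557 values of single members under alternative settings, 1521 kept their side of the threshold, 18 lost a call and 16 gained one. Direction was checked only for members called in the main fit, and 2 of those values turned. Both were Mt1 under the title groups, at -0.53 for NKp46 and NKG2D and -0.17 for NKp46 and DNAM-1 antibodies against medium. By the column names each of those title groups mixes medium and antibody libraries, so losses of calls by the titles do not test a treatment. The calls of Tsc22d3 and Ddit4 between KO and WT held in every setting run, in each subset and in their average. Over all genes, few same-numbered libraries deviated together (0 of 9 pairs in WT, 0 of 9 in KO, 1 of 3 with ionomycin and 1 of 9 in the antibody table had a correlation over 0.1). Same-numbered pairs had a mean correlation of 0.001 in WT, 0.02 in KO, 0.062 with ionomycin and 0.064 in the antibody table. Such a check cannot exclude shared mice, and the replicate block was kept as an alternative. Neutrophil markers did follow the number: they summed to 306 and 119 TPM in vehicle and ionomycin replicate 3, and to 12.53, 9.58 and 1.44 TPM in the antibody libraries numbered 2, against at most 2.19 and 0.45 TPM in the others of these tables. With the replicate block, the members called were 1 for TN against TP cells in WT (Sgk1, adjusted p = 0.0349, limma), 2 for NKp46 and NKG2D (Mt1 and Sgk1, the latter at 0.0307) and 4 for NKp46 and DNAM-1 against medium (Mt1, Sgk1 at 0.0177, Per1 at 0.0376 and Mt2 at 0.0467), where the main counts were 0, 1 and 1; all genes called rose from 59 to 239 and from 107 to 528. For the average of KO against WT the count was also 4. For ionomycin, where 1 was called, the count was 0 without the filter, 0 without the variance trend, 2 after quantile normalization, 2 after median-of-ratios scaling and 0 to 2 when 1 library was left out. For NKp46 and NKG2D it was 0 without the filter, after quantile normalization, with only the groups compared and by the titles, and 0 to 2 when 1 library was left out. For NKp46 and DNAM-1 it was 2 with a pseudocount of 0.1, 0 without the filter, 0 by the titles and 0 to 4 when 1 library was left out. The count of all genes called moved from 191, 162 and 86 (KO against WT in TP, SP and TN cells) to as few as 91, 84 and 32, from 157 (TN against TP cells in WT) to 43, from 418 (ionomycin) to between 43 and 712, from 59 (NKp46 and NKG2D) to between 0 and 311 and from 107 (NKp46 and DNAM-1) to between 1 and 604; for the average of the subsets it ran from 531 to 801 around 743. The 6 receptor genes called in that average were 6 or 7 in its 24 alternatives, and in single subsets their count of 3, 2 and 1 ran from 0 to 4, 0 to 3 and 0 to 1. The causes were not tested. Depth is unknown, and metallothionein values near 0 cannot be given a counting error.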

Other observations

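Anxa1 was the only called gene of the glucocorticoid list that was lower in KO. It was lower in KO than in WT TP cells (-0.89, adjusted p = 0.0073, limma) and SP cells (-0.85, adjusted p = 0.0108), and lower in WT TN than in WT TP cells (-0.74, adjusted p = 0.0333). The KO calls were lost without 2 libraries taken singly in TP cells (0.0504 and 0.0527) and 3 in SP cells (0.0605 to 0.0755), and the call between TN and TP cells without any 1 of its 6 libraries (0.0535 to 0.14). In KO cells, Il7r was lower in SP than in TP cells (-2.69, adjusted p = 0.0373), where the TP libraries also carry the B cell and neutrophil transcripts given above; this call was lost in 8 of 13 alternative settings, among them without any of the 3 SP libraries (0.0532 to 0.22) or TP replicate 1 (0.128) or 2 (0.262).

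Among the genes most like the members in profile, Slc35g1, a membrane transporter-like gene, ranged from 3.27 to 6.17 TPM in WT and from 8.85 to 19.65 TPM in KO, and Cpt1a from 54.08 to 90.13 TPM in WT and from 83.33 to 151 TPM in KO. Within groups, Sgk1 and Tsc22d3 had a correlation of 0.542 and Sgk1 and Per1 of -0.601 over the 18 libraries, given as a description.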
